A study of Rattus norvegicus with 3 samples.

Results

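Notch signaling in the neonatal retina was followed through 10 genes: the receptors Notch1, Notch2 and Notch3, the ligands Dll1, Dll3, Dll4 and Jag1, and the targets Hes1, Hes5 and Hey1. They were chosen by gene symbol with earlier results of these data known, and all 10 were found among the 18425 genes of the table. The retinas came from wild-type Sprague Dawley rats and were harvested at P4 (postnatal day 4). At P1 the eyes had received 1 µl into the vitreous, either citrate buffer, saline, or STZ (10 µg), and the STZ solution was itself made up in citrate buffer. STZ (streptozotocin) is a DNA-alkylating analog of N-acetyl glucosamine. Each condition gave 1 RNA-seq library, so no difference below has a replicate check within these data and no p-value was computed. By RT-PCR, the paper reports Hes1, Hes5, Hey1, Dll1, Dll3 and Dll4 as significantly lower in STZ-treated retinas. Whether the RT-PCR samples were separate from the sequenced retinas is not stated. Those RT-PCR values were not used here. The number of animals or retinas behind a library is not given in the sources used here, so the treatment cannot be told apart from differences between animals, eyes or dissections. For other assays the study injected STZ into right eyes and buffer into the left eyes of those animals, and whether the sequenced retinas were paired in this way is not given either.

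Notch receptors sit on the cell surface and are activated by Delta-like and Jagged ligands on neighboring cells. Cleavage then frees the intracellular part of the receptor, which enters the nucleus, joins the DNA-binding protein RBPJ and switches on repressors of the Hes and Hey families. In the developing retina these repressors hold cells in the progenitor state, while cells that start to differentiate present Delta-like ligands to their neighbors. Dll4, Notch4, Hey1 and Notch3 are also known from blood vessels, Notch3 mainly from their mural cells.

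The counts summed to between 21977846 and 22031241 per library. Retinal markers were present in all 3 libraries. FPKM stands for fragments per kilobase of transcript, scaled to sequencing depth. Summed over 7 photoreceptor genes it was 1050 (buffer), 999.7 (saline) and 1256 (STZ). Other tissues differed between the libraries. The 8 ciliary and iris epithelium genes had 2473 (buffer), 9290 (saline) and 2506 (STZ) reads together. The summed FPKM of 8 lens genes was 11.5, 30.1 and 174.9 in the same order, and that of 7 microglia genes 45.9, 55.4 and 134.2. Their part in the values of the Notch genes was not tested.

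In all 3 libraries the 10 genes had the same order by FPKM, which corrects for transcript length. Hes5 was highest, with 148.0 FPKM (buffer), 104.0 (saline) and 96.6 (STZ). Notch1 followed, then Dll3, Dll1, Hes1, Dll4, Notch2, Hey1 and Notch3. Jag1 was lowest, with 1.36, 1.88 and 1.32 FPKM, a 109-fold range from Hes5 to Jag1 in buffer. Neighbors in this order had separate 95% Poisson counting intervals in buffer and in STZ. In saline, Dll3 and Dll1, Hes1 and Dll4, and Notch2 and Hey1 had overlapping intervals. These intervals cover counting error only. They may be too narrow, because without molecular identifiers PCR copies cannot be told from separate molecules.

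**Figure D1:**
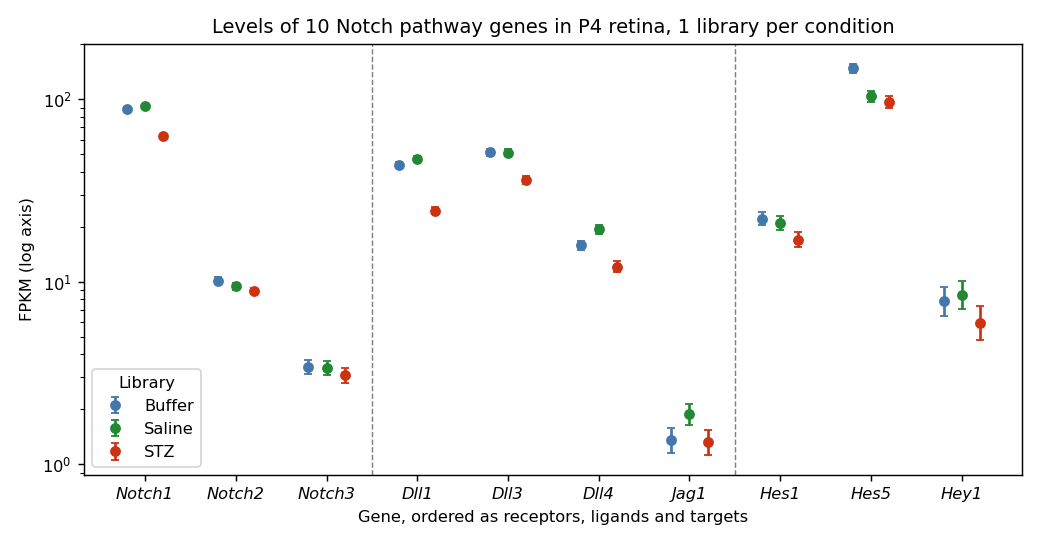
FPKM of each gene on a log axis in the buffer, saline and STZ libraries, 1 point per library; bars are 95% Poisson intervals of the counts and cover counting error only. The STZ point is the lowest of the 3 for every gene, and Hes5 in saline (104.0) lies closer to STZ (96.6) than to buffer (148.0).

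All 10 genes took a smaller share of the reads in STZ than in buffer, and all 10 a smaller share than in saline. The background is the 11804 genes that averaged 100 counts or more across libraries, which include all 10. Of these, 44.3% were lower in STZ than in buffer, 47.2% than in saline and 36.5% than in both. Dll1 had the lowest ratio of the 10 against each control, and Notch3 had one of 0.900 and 0.912. The median log2 count ratio of the 10 genes was -0.39 in STZ against buffer and -0.50 against saline, where the median over the 11804 genes was 0.03 and 0.02. Both comparisons use the same STZ library, so they are not independent. The genes were also chosen with earlier results of these data known, so their counts are no test of the pathway. In bulk RNA, fewer cells of a type and less RNA per cell cannot be told apart.

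To get the count ratio, a gene's reads were divided by the library total and the STZ quotient by the control quotient. Its 95% interval is exact (Clopper-Pearson) and covers counting error. The interval lay below 1 for 7 of the 10 genes in STZ against buffer, and for 21.8% of the 11804 genes. Against saline it also lay below 1 for 7 of 10, and for 26.3% of all. For 5 genes, Notch1, Dll1, Dll3, Dll4 and Hes1, it lay below 1 against both controls, which 17.3% of all genes did. The fold rule of the study is stricter. It takes (FPKM + 1)/(FPKM + 1) and calls a gene below 0.65 or above the reciprocal of 0.65, rounded. In STZ against buffer it called 1 of the 10, Dll1, where 1.04% of the 18425 genes were below 0.65. Against saline it called Dll1 and Dll4, where 1.75% of all genes were below 0.65. Dll1 alone was below it against both controls, as 0.63% of all genes were. No member was above the upper threshold against buffer, where 2.25% of all genes were, or against saline, where 2.04% were. No counting interval of a member lay above 1 in these comparisons, while those of 28.4% and 29.9% of the 11804 genes did.

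**Figure D2:**
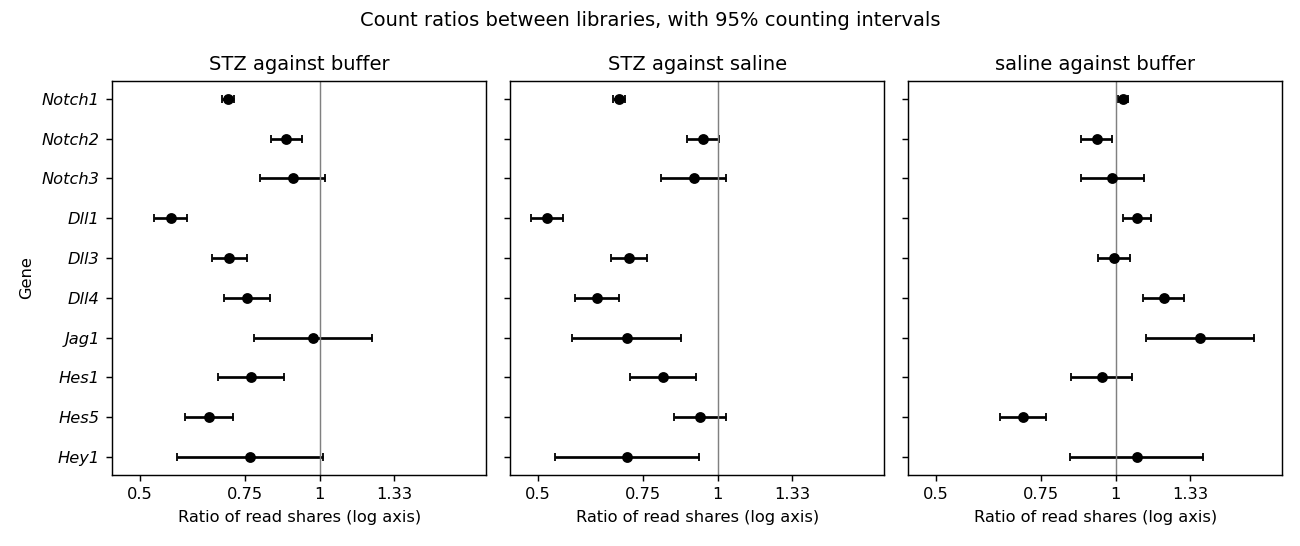
Ratio of read shares for each gene in 3 comparisons (STZ with buffer, STZ with saline, and saline with buffer), on a log axis, with exact 95% counting intervals; the grey line marks 1. Dll1 lies farthest to the left in both STZ comparisons (0.564 and 0.519), and Hes5 is low in STZ and in saline against buffer (0.654 and 0.700).

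Among the receptors, Notch1 carried most of the signal and the difference. Notch1 (gene 25496), the main Notch receptor of retinal progenitors, had 17929 reads in buffer, 18420 in saline and 12628 in STZ, or 88.9, 91.4 and 62.5 FPKM. The STZ library was lowest and the controls lay close together. The count ratio was 0.703 against buffer (0.687 to 0.719) and 0.684 against saline (0.669 to 0.700), with folds of 0.706 and 0.687, both short of 0.65. Of the 11804 genes, 2.43% had a ratio as low or lower against buffer.

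Notch2 (gene 29492), a paralog with the same mode of activation, had 2338 (buffer), 2172 (saline) and 2058 (STZ) reads. The ratio was 0.879 against buffer (0.828 to 0.933), but 0.945 against saline (0.889 to 1.00), an interval that holds 1. Notch3 (gene 56761) had 531, 524 and 479 reads, with ratios of 0.900 (0.794 to 1.02) and 0.912 (0.804 to 1.03). For Notch3 no difference between STZ and either control was detectable at this depth. Notch1 gave 86.8% (buffer), 87.7% (saline) and 83.9% (STZ) of the FPKM summed over the 3 receptors. The reads of Notch2 per read of Notch1 were 0.130 in buffer (0.125 to 0.136), 0.118 in saline (0.113 to 0.123) and 0.163 in STZ (0.155 to 0.171), so the makeup of the receptor pool in STZ lay outside the counting intervals of both controls.

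Among the ligands, the 3 Delta-like genes were lower in STZ than in both controls and Jag1 was not lower than in buffer beyond counting error. Dll1 (gene 84010), the Delta-like ligand that cells beginning to differentiate present to progenitors, had 2765 reads in buffer, 2999 in saline and 1561 in STZ, or 43.6, 47.3 and 24.6 FPKM. STZ was well below both controls, and saline was at 1.09 of buffer (1.03 to 1.14). The count ratio was 0.564 against buffer (0.529 to 0.600) and 0.519 against saline (0.488 to 0.552). Only 0.5% and 0.669% of the 11804 genes had ratios as low or lower.

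Dll3 (gene 114125), a divergent Delta-like protein that does not activate Notch on neighboring cells, had 2019, 2004 and 1428 reads. The controls differed by less than counting error, with a ratio of 0.993 (0.933 to 1.06), and STZ was at 0.706 of buffer (0.659 to 0.756) and 0.711 of saline (0.664 to 0.761). The reads of Dll1 per read of Dll3 were 1.37 in buffer (1.29 to 1.45), 1.50 in saline (1.41 to 1.58) and 1.09 in STZ (1.02 to 1.18). Dll3 kept its ratio to Notch1, at 0.113, 0.109 and 0.113 reads per Notch1 read, whereas Dll1 per Notch1 was 0.154 (buffer), 0.163 (saline) and 0.124 (STZ).

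Dll4 (gene 311332), a ligand of newborn retinal neurons and of endothelial tip cells, had 1174 (buffer), 1411 (saline) and 890 (STZ) reads. The controls did not lie together, since saline was at 1.20 of buffer (1.11 to 1.30). STZ was at 0.757 of buffer (0.693 to 0.826) and 0.629 of saline (0.578 to 0.685). The fold of 0.644 against saline passed 0.65, while the fold of 0.780 against buffer did not.

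Jag1 (gene 29146), the Jagged-type ligand, had few reads, 160 in buffer, 221 in saline and 156 in STZ. Saline stood apart from both others. STZ was at 0.973 of buffer (0.776 to 1.22) and 0.704 of saline (0.570 to 0.868), while saline was at 1.38 of buffer (1.12 to 1.70). The ciliary and iris epithelium genes were also highest in saline. Of these, 6 of the 6 that averaged at least 10 counts were past the upper threshold in saline against buffer, beside 1% of all genes. The part of ciliary and iris epithelium in the Jag1 value was not tested.

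The 3 target genes had count ratios below 1 in STZ against buffer, but the interval of Hey1 held 1. The controls of Hes5 disagreed. Hes5 (gene 79225), a basic helix-loop-helix repressor that holds retinal cells in the progenitor state, had 1174 reads in buffer, 821 in saline and 769 in STZ. Buffer was high, and saline and STZ were near each other. STZ was at 0.654 of buffer (0.596 to 0.717), with a fold of 0.655, just short of the threshold. Against saline it was at 0.934 (0.846 to 1.03), an interval that holds 1. Saline itself was at 0.700 of buffer (0.639 to 0.766), and 0.568% of the 11804 genes were as low or lower in that comparison of the controls. The fold against the mean of both controls was 0.769.

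Hes1 (gene 29577), the related repressor, had 576 (buffer), 545 (saline) and 443 (STZ) reads. The controls differed by less than counting error, at 0.947 (0.841 to 1.07). STZ was at 0.768 of buffer (0.677 to 0.871) and 0.811 of saline (0.714 to 0.921). Hey1 (gene 155437), a Hes-related repressor, had only 120, 130 and 92 reads. Its ratio was 0.765 against buffer (0.577 to 1.01), which holds 1, and 0.706 against saline (0.535 to 0.929). The reads of Hes1 per read of Notch1 were 0.0321 in buffer (0.0295 to 0.0349), 0.0296 in saline (0.0271 to 0.0322) and 0.0351 in STZ (0.0318 to 0.0386). The STZ interval of this ratio overlapped that of buffer and, by a narrow margin, that of saline.

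The upstream sequences of the genes are shown because RBPJ binds DNA at a TGGGAA core. RefSeq (build GRCr8) gave a promoter for 8 of the 10 genes, all but Dll4 and Hey1. In the 250 bases before the start, both strands searched, 3 of the 8 held TGGGAA (Hes1, Hes5 and Dll1) and each held it at 2 places. Over 33469 rat promoter windows of the same length, 22.1% held the core and 2.71% held it at 2 or more places. The longer form GTGGGAA, which contains the core, was in the same 3 windows and in 5.27% of all. CAGCTG, an E-box, was in 1 of the 8 (Dll3) and in 12% of all, and CACNAG, the N-box that Hes proteins bind, was in 3 of the 8 (Hes1, Notch1 and Notch3) and in 37.2% of all. These matches are letters in a window and not measured binding sites. Capitals mark TGGGAA or its reverse complement.
Hes1 (chr11:84213046-84213295, minus strand): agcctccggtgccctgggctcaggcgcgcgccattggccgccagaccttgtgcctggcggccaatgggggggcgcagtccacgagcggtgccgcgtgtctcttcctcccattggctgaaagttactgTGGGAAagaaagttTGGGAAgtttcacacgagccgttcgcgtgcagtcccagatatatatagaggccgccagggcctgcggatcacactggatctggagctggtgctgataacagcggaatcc
Hes5 (chr5:170804327-170804576, plus strand): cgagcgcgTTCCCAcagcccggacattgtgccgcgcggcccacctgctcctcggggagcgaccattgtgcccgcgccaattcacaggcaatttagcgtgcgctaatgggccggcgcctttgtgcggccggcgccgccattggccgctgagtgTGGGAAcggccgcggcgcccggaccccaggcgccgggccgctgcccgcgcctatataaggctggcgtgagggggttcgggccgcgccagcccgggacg
Dll1 (chr1:64993275-64993524, minus strand): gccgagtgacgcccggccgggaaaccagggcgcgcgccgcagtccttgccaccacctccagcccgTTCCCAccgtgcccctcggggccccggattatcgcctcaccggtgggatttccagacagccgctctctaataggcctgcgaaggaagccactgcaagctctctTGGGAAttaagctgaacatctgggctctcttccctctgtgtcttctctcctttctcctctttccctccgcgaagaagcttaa
Dll3 (chr1:92697317-92697566, minus strand): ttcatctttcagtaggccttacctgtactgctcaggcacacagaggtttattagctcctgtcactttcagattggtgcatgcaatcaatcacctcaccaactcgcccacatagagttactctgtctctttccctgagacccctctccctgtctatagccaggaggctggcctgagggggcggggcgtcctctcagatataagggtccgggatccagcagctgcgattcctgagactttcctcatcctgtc
In Hes1 both cores read along the gene, with their first letters 123 and 109 bases before the start. In Hes5 they are 242 and 98 bases before it and in Dll1 185 and 82 bases, on opposite strands. The Dll3 window, shown for contrast, has no core. Of the 3 genes with paired cores, Dll1 had the lowest ratio in STZ against buffer (0.564), Hes5 was at 0.654 and Hes1 at 0.768. Of the 5 without a core, Notch1 was at 0.703, Dll3 at 0.706, Notch2 at 0.879, Notch3 at 0.900 and Jag1 at 0.973, so the ratios of genes with and without the core overlapped.

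The Notch genes also differed between the controls, which are 1 library each and differ in the injected solution. In saline against buffer the 10 ratios ran from 0.700 for Hes5 to 1.38 for Jag1, with 5 below 1, beside 46.3% of the 11804 genes, and a median log2 ratio of 0.02. No member passed the fold rule, where 0.429% of all genes were below 0.65 and 1% above the upper threshold. The counting interval lay above 1 for 4 members and below 1 for 2, beside 17.1% and 14.3% of the 11804 genes. The central 95% of those genes lay between ratios of 0.810 and 1.30 in saline against buffer. Hes5 and Jag1 fell outside that range and the other 8 within it. In STZ against buffer the same central range was wider, 0.706 to 1.50, and Notch1, Dll1 and Hes5 lay below it, with Dll3 at its edge. In STZ against saline it was 0.658 to 1.53, and Dll1 and Dll4 lay below it. Dll1 was the only member below the central range in both STZ comparisons.

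**Figure D3:**
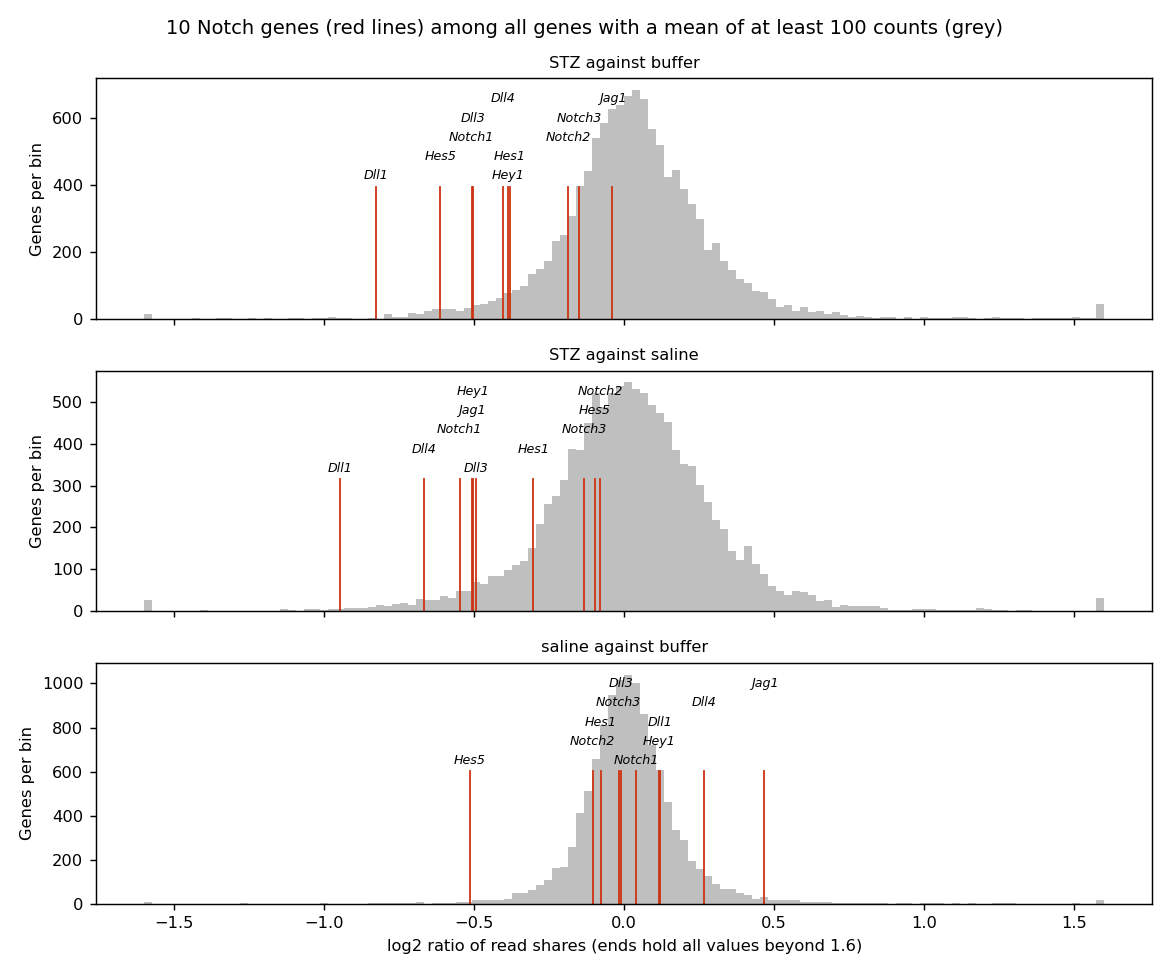
Log2 ratio of read shares of the 10 Notch genes (red lines) over the distribution of 11804 well-covered genes (grey; number of genes per bin), for the 3 comparisons. All 10 lie left of 0 in both STZ comparisons, while in saline against buffer 5 lie on each side and Hes5 and Jag1 lie at the ends.

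The wider pathway was read from a list of 50 further genes, of which 48 were measured and 47 averaged 10 counts or more. Their median log2 count ratio was -0.09 in STZ against buffer and -0.08 against saline, nearer to 0 than that of the 10 genes above. By the fold rule 2 were lower and 1 higher in STZ than in buffer, and 1 was lower than in saline. Over all genes, 1.04% were lower and 2.25% higher than in buffer by that rule, and 1.75% lower than in saline. Counting intervals lay below 1 for 20 of the 47 and above 1 for 6 in STZ against buffer, beside 18.8% and 26.2% of the 14886 genes that averaged 10 counts or more. Against saline they lay below 1 for 23 and above 1 for 7, beside 23.5% and 26.9%. Hes6, a Hes family member of cells leaving the progenitor state, had 13237 reads in buffer, 12999 in saline and 8578 in STZ, with folds of 0.647 and 0.658. Nrarp, a Notch target that feeds back on the pathway, had 1569, 1554 and 1079 reads and ratios of 0.686 (0.635 to 0.742) and 0.693 (0.640 to 0.749). Lfng, which adds sugars to Notch and alters its response to ligands, had 1793, 1816 and 1286 reads and ratios of 0.716 (0.666 to 0.770) and 0.706 (0.657 to 0.759). For Hes6, Nrarp and Lfng the counting interval between the controls held 1. Mib1, the ubiquitin ligase that drives ligand endocytosis, was named after its values were seen, with 3274, 3031 and 2177 reads. It was at 0.664 of buffer (0.628 to 0.701) and 0.717 of saline (0.678 to 0.757). Saline itself was at 0.926 of buffer for Mib1 (0.881 to 0.974). The other ligand endocytosis genes of the list were higher in STZ, with intervals above 1. Mib2 was at 1.10 of buffer and 1.20 of saline, and Neurl1 at 1.19 and 1.13.

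The gene of RBPJ itself had count ratios nearer to 1 than those of Hes6, Nrarp, Lfng and Mib1. Rbpj had 6349, 6156 and 5046 reads and count ratios of 0.793 (0.764 to 0.823) and 0.818 (0.788 to 0.849), while its FPKM fold against buffer was 0.726. The 8 measured genes of the cleavage machinery had a median log2 ratio of -0.05 against buffer and none passed the fold rule. Adam10, the protease that makes the first cut in activated Notch, was at 0.963 of buffer (0.913 to 1.02). Mfng, a relative of Lfng, was at 0.938 of buffer (0.876 to 1.00), an interval that holds 1. Heyl and Hey2, both Hey family genes, were at 0.903 (0.848 to 0.961) and 0.799 (0.708 to 0.902) of buffer and at 0.790 and 0.677 of saline, where the saline library was the highest for both.

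The further ligands of the list differed in direction. Jag2, the other Jagged-type ligand, had 969, 1043 and 1193 reads and was higher in STZ, at 1.23 of buffer (1.13 to 1.34) and 1.14 of saline (1.05 to 1.24). Dlk1, a Delta-like protein without the Notch-activating domain, had only 97, 79 and 22 reads, with ratios of 0.226 (0.136 to 0.363) and 0.278 (0.165 to 0.450), the lowest of the list. Hes7, a Hes family gene known from somite formation, was the gene past the upper threshold, with 35, 50 and 64 reads. Its fold was 1.60 against buffer, while its count ratio against saline was 1.28 (0.868 to 1.89), an interval that holds 1.

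Cell type markers also differed between the libraries, and their part in the differences was not tested. Of the 14886 genes, 43.2% had a count ratio below 1 in STZ against buffer. Of 11 retinal progenitor genes, 10 had a count ratio below 1 in STZ against buffer and the median log2 ratio was -0.21, with a summed FPKM of 1191 (buffer), 1235 (saline) and 942.9 (STZ). Ccnd1, Mki67 and Pax6, the 3 with the most reads, were at 0.610, 0.686 and 1.03 of buffer. Of 9 neurogenic genes, all 9 were below 1 and the median was -0.34, with summed FPKM of 1182, 1143 and 982.3 over the 10 listed genes. Neurod4, Otx2 and Btg2, the 3 with the most reads, were at 0.792, 0.885 and 0.927 of buffer. The 9 genes ran from -0.70 to -0.11 on the log2 scale, and the 10 Notch genes from -0.83 for Dll1 to -0.04 for Jag1. Photoreceptor genes had a median of 0.25 and ganglion and amacrine genes of 0.23. Of the 6 Müller glia genes, 3 were below 1 and 3 above. Their summed FPKM was 506.0, 538.6 and 581.0, and its increase came from Apoe, named after its values were seen, with 47.8, 72.2 and 164.0.

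Vascular markers had lower ratios. All 12 endothelial genes were below 1 in STZ against buffer, with a median log2 ratio of -1.86, a ratio of 0.276. Kdr, Cldn5 and Tie1, the 3 with the most reads, were at 0.757, 0.196 and 0.247. Together the 12 summed to 124.8 FPKM (buffer), 134.5 (saline) and 85.6 (STZ). Kdr gave 105.9, 117.4 and 80.2 of this, so the sum mostly follows Kdr and not the other genes. The 12 ran from -2.74 to -0.40 on the log2 scale, and the lowest had only 20 reads in buffer and 3 in STZ. Counting intervals lay below 1 for 10 of the 12, beside 18.8% of the 14886 genes, and held 1 for 2. Of the Notch genes known from endothelium, Dll4 was at 0.757 of buffer, Hey1 at 0.765 and Notch4, with 288, 270 and 267 reads, at 0.925 (0.781 to 1.10). Of 8 pericyte genes, 6 were below 1, the median ratio was 0.434 and the list had 505, 477 and 232 reads together. They ran from 0.281 to 1.72 of buffer, and Notch3 was at 0.900 (0.794 to 1.02). The 4 astrocyte genes that averaged 10 counts or more were all below 1, with a median log2 ratio of -1.14 and summed FPKM of 14.4, 15.8 and 7.33 over the 5 listed. Aldh1l1 was at 0 reads in buffer and STZ and at 1 in saline. Which cells carried the Notch transcripts cannot be read from bulk RNA.

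**Figure D4:**
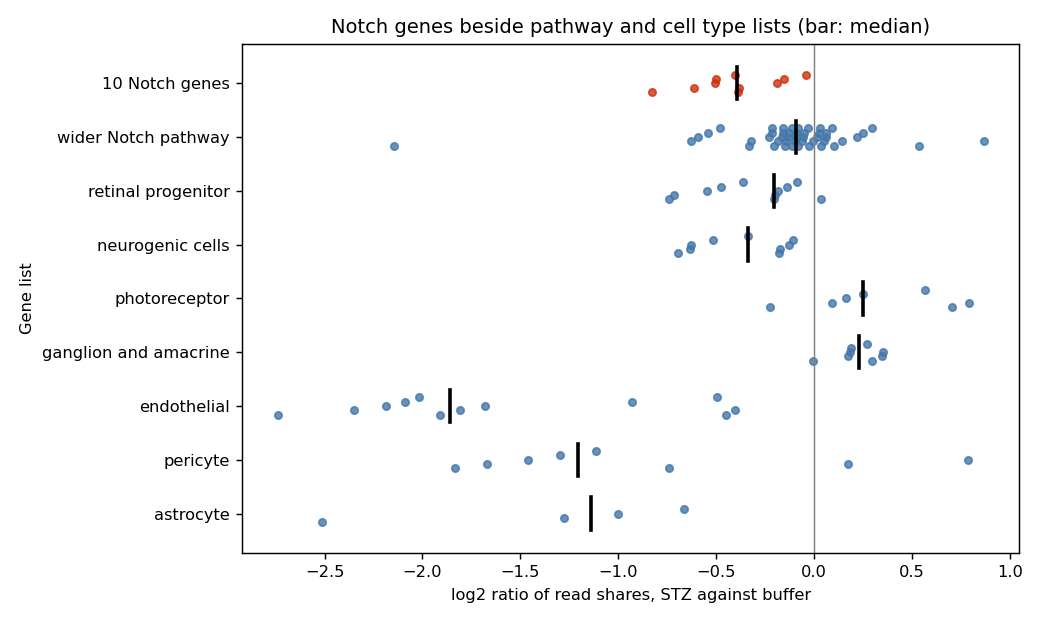
Log2 ratio of read shares in STZ against buffer for the 10 Notch genes (red) and for the genes of the wider pathway and of 7 cell type lists (blue) that averaged 10 counts or more; black bars are list medians. The medians are -0.39 for the Notch genes, -0.34 for the neurogenic genes and -1.86 for the endothelial genes.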

How the data were processed

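Retinal RNA was measured in 3 libraries, 1 per condition (citrate buffer, saline, STZ). Per the methods, low-quality 5′ ends were trimmed off, TopHat2 did the mapping with up to 2 mismatches allowed, and multi-mapped reads were dropped. The submitters' processing notes name the build rn6, FastQC and TopHat2; a custom R script of the authors computed FPKM, and the gene annotation and the tool behind the read counts are not given in the sources used here. The authors deposited FPKM, TPM and an estimated count of reads per gene. The deposited FPKM gave the folds and the levels, and the deposited TPM entered only an alternative. The estimated counts, of which 12.9% to 13.2% per library are fractional, were rounded to whole numbers; those of the 10 Notch genes are whole as deposited.

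The fold was (FPKM + 1)/(FPKM + 1) with the upper and lower thresholds of the study's methods. Count ratios carry exact Clopper-Pearson 95% intervals and single levels exact Poisson 95% intervals, which cover counting error only. With 1 library per condition no test was run. For a count of 0 the Poisson interval reaches up to 3.69 reads. The calculation was tested on simulated data.

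The members and gene lists were chosen with earlier results of these data known. Named genes were the 10 members, pathway genes past the fold rule in STZ against either control, 10 pathway genes fixed by name, and up to 3 genes per marker list by mean count. Mib1, Mib2, Neurl1, Apoe and Aldh1l1 were named outside this rule, after their values were seen. Promoter sequences are from NCBI RefSeq (GRCr8), matched by gene identifier, a different build from that of the mapping. Alternatives were other pseudocounts, thresholds, units, scalings by edgeR 4.0.16 and DESeq2 1.42.0 in R 4.3.3, and controls. No count model was fitted. Python 3.11.15 with numpy 2.4.6, pandas 2.3.3, scipy 1.17.1 and matplotlib 3.10.9 did the rest.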

Additional observations from a re-analysis of the deposited data

How the results depend on the processing

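Of 34 alternatives tried for the counts of genes past the fold rule and for the median ratios, 30 stayed within the set limits. For a median the limits were the medians of the members' counting interval ends. In STZ against buffer these were -0.55 and -0.24, wide beside the shift from -0.39 to -0.43 with either scaling. Minimum counts removed no member and the members' counts are whole as deposited, so those alternatives could not move a result. The tally is therefore a weak check. In STZ against buffer, scaling by TMM or by DESeq2 size factors raised the number past the rule from 1 to 2, because Hes5 moved from a fold of 0.655 to 0.637 and 0.638. With thresholds of 2 and 0.5 in place of the study's the number was 0 against buffer and 0 against saline, so Dll1 and Dll4 pass only the milder rule. The fold of Dll1 ran from 0.550 to 0.573 against buffer over the alternatives. Of 160 alternatives for single genes, 4 left the gene's counting interval, rescaled to be centred on its fold in place of its count ratio. Notch1 against buffer was 0.687 with TMM and 0.688 with DESeq2 size factors, and against the mean of both controls Dll4 was 0.705 and Hes5 0.769. Direction was compared only for the called genes, Dll1 and Dll4, and 0 changed. Their folds lay too far below 1 for alternatives of this size to reverse, so this comparison could not have come out otherwise. The median log2 ratio of the 10 genes in saline against buffer was 0.02 and became -0.01 with either scaling, so it has no stable sign. No paired analysis was possible because each condition has 1 library, and for the same reason no replicate could be left out. Genes with few reads, such as Hey1 and Jag1, have wide counting intervals, and the spread between animals is unknown.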
